A study of Homo sapiens with 12 samples.

Results

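The genes described here are 44 human genes for heat shock proteins, the cytosolic chaperonin and their co-chaperones. They were chosen by gene symbol from knowledge of the family, with earlier results of these data known. All 44 were found in the deposited table of 78932 genes and passed the filter on low counts, which kept 14065. Messenger RNA was sequenced from THP-1 cells, an established human monocytic leukaemia line, in 4 groups of 3 libraries. The CEL group received LPS, ATP, cyclosporin A, eltrombopag and luspatercept. The CE group received LPS, ATP, cyclosporin A and eltrombopag. The LPS group received LPS and ATP without drugs, as a model of pyroptosis, an inflammatory form of cell death. The NC group was the normal control. LPS, from the outer membrane of bacteria, activates TLR4, ATP opens the P2X7 channel, cyclosporin A binds cyclophilins and blocks calcineurin, eltrombopag is a thrombopoietin receptor agonist that also binds iron, and luspatercept is a ligand trap built from an activin receptor. The labels give no doses or times, so the 3 groups that received LPS and ATP are compared without knowing their timing. No group received cyclosporin A or eltrombopag alone, so the effects of these drugs cannot be told apart. The labels give 1 cell line and do not say whether the 3 libraries of a group came from separate cultures, so p-values reflect only how far these libraries spread, which may be technical. The table names the CE columns only as treated. They were read as CE because the other columns name the other groups, and every CE value rests on that reading.

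Hsp70 proteins bind short hydrophobic stretches of unfolded chains in a cycle driven by ATP. J proteins bring clients to Hsp70 and trigger ATP hydrolysis, and nucleotide exchange factors such as Hsp110 and BAG proteins reset it. Hsp90 takes over partly folded kinases and receptors with the help of co-chaperones, and the chaperonin TRiC encloses actin, tubulin and other proteins in a ring-shaped chamber. Heat shock factor HSF1 switches on many of these genes when unfolded proteins build up, by binding repeats of the short unit GAA in their promoters. In macrophages, Hsp90 is known to keep the inflammasome sensor NLRP3 stable.

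Levels are CPM, counts scaled to library size with TMM factors, and comparisons between genes use TPM, which is also scaled by gene length. A gene is said to rise or fall where the adjusted p of edgeR's quasi-likelihood test (Benjamini-Hochberg over all 14065 genes tested) is under 0.05. Changes are log2 fold changes ± an approximate standard error, with 3 libraries per group. The depth of the libraries was 17737213 to 23183429 counts, over 21775 to 26123 detected genes. CD33, a myeloid surface marker, averaged 68.1 CPM in CEL, 67.3 in CE, 59.3 in LPS and 61.6 in NC, whereas the early myeloid genes MPO and CEBPA averaged at most 1.49 CPM in any group. The 9 monocytic markers fixed for this work summed to 154 to 198 CPM in CEL, 179.6 to 342 in CE, 492 to 585 in LPS and 760.3 to 836 in NC, so the sum differed without overlap in each comparison below except CEL against CE. Its members did not move alike. Lysozyme (LYZ) had means of 19.6 CPM in CEL, 26.0 in CE, 148 in LPS and 624 in NC, and FCGR1A of 21.8 in CEL, 34.5 in CE, 204 in LPS and 104 in NC. SPI1, CSF1R, ITGAM and CD14 were lowest in NC, for example CSF1R with 43.3 CPM in CEL, 64.2 in CE, 49.0 in LPS and 7.61 in NC. Marker sums of T cells, B cells, erythroid cells, megakaryocytes and epithelium stayed at or under 1.18 CPM in every library. The 4 fibroblast markers summed to 72.1 to 81.0 CPM in LPS and to at most 5.10 CPM in the other groups, through DCN and LUM, with both collagen genes under 0.3 CPM. Of the 3 endothelial markers PECAM1, which monocytes also carry, reached a group mean of 521.6 CPM, and VWF and CDH5 stayed under 0.3. The part of these markers in the results was not tested. In bulk RNA, fewer cells of a type and less RNA per cell cannot be told apart.

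Some libraries stood apart. In CE 2, members whose transcripts are rich in G and C lay above CE 1 and CE 3. Of the 44 members, 10 have a GC content of at least 55%, a division chosen after seeing the data, and their log2 CPM in CE 2 minus the mean of the other 2 CE libraries had a median of 1.60 (range -0.13 to 3.38). For the 34 members with less GC the median was -0.19 (range -0.33 to 0.34). The 7 members more than 1 log2 unit above were HSPA1A, HSPA1B, BAG3, CDC37, UNC45A, STUB1 and HSF1, and 15.6% of all genes tested were as far above. Across 13247 genes with a known GC content, the same deviation followed GC with a Spearman correlation of 0.46 in CE 2, -0.32 in CE 1 and -0.48 in CE 3. It was -0.32 in LPS 1, -0.39 in LPS 2 and 0.51 in LPS 3. In CEL 1, CEL 2 and CEL 3 it was 0.35, 0.03 and -0.41, and in NC 1, NC 2 and NC 3 -0.06, 0.16 and -0.1. Genes are not independent replicates, and the 3 deviations of a group share its libraries. Leaving out CE 2 acts on the CE side alone. By the same measure those 7 members also lay above in LPS 3, by 0.17 (STUB1) to 1.68 (HSPA1A). In CEL 1 they lay above by 0.31 (CDC37) to 1.12 (HSF1). HSPA1A, BAG3, CDC37, UNC45A, STUB1 and HSF1 were called in CE against LPS without CE 2, but in no other alternative. The alternatives included an offset for GC content. Calls that changed without CE 2 are given with and without it. In CE against LPS, CHORDC1 passed without CE 2 (0.23, adjusted p = 0.0124, beside 0.17 with it), as did PTGES3 (0.19, adjusted p = 0.00685, beside 0.13). BAG1 fell (-0.27, adjusted p = 0.0195, beside -0.17) and CCT7 lost its call (-0.13, adjusted p = 0.0606, beside -0.21). In CEL against CE, HSPA4L fell without CE 2 (-0.31, adjusted p = 0.00969, beside -0.22 with it). HSPH1 (0.10, adjusted p = 0.0807, beside 0.14) and TCP1 (0.12, adjusted p = 0.0558, beside 0.19) lost their calls. In CE against NC, HSPA4 (0.15, adjusted p = 0.00206) and DNAJC7 (0.17, adjusted p = 0.0069) passed without CE 2, beside 0.07 and 0.07 with it. STUB1 fell (-1.24, adjusted p = 3.24e-05, beside -0.66) and AHSA1 lost its call (-0.075, adjusted p = 0.17, beside -0.16). In LPS 1 and NC 3, ribosomal RNA rows took 14.4% and 17.1% of TPM, against at most 0.072% in the other 10 libraries. The summed TPM of the 44 members was 13410 in LPS 1 beside 18390 and 18750 in the other LPS libraries, and 10750 in NC 3 beside 15350 and 15160 in the other NC libraries. TPM is therefore used for shares and ratios within a library, and CPM for differences between groups. The 2 limma alternatives below do compare TPM between groups, so the low TPM of LPS 1 and NC 3 enters their spread. For example, DNAJB1 in LPS had 135 ± 2.09 CPM but 80.9 ± 16.0 TPM (SD). The part of this in calls lost with limma was not tested.

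**Figure D1:**
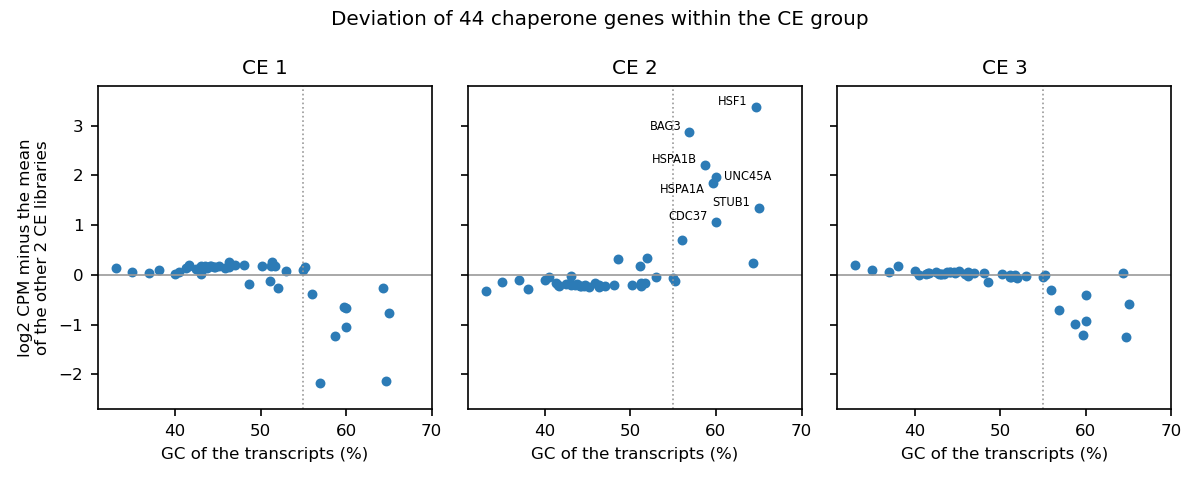
Deviation of each of the 44 chaperone genes in a CE library (y, log2 CPM minus the mean of the other 2 CE libraries) against the GC content of its transcripts (x, %), 1 point per gene, with a dotted line at 55%. In CE 2 the genes past the line had a median of 1.60 and the others of -0.19, and the 7 genes above 1 are named.

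The heat shock element, the site that HSF1 binds, is a run of the unit GAA and its reverse TTC with 2 bases between them. Promoter windows of 300 bases (250 before to 50 after a start; RefSeq, GRCh38.p14) were at hand for 37 of the 44 members, in 53 windows. STUB1, FKBP4, HSF1, CCT6A, GRPEL1, HSPA14 and ST13 had none. A 3-unit element, GAANNTTCNNGAA or its other strand TTCNNGAANNTTC, was present for 7 of these 37 genes (18.9%), beside 0.608% of 27305 genes and 0.49% of 35116 windows of the same length in the whole table. A 2-unit element, GAANNTTC or TTCNNGAA, which the 3-unit element contains, was present for 19 of the 37 (51.4%), beside 16.2% of all genes and 13.5% of all windows. The family was chosen by function and includes the classical heat-inducible genes. The stretches of these 7 genes are shown because several of the main changes below are theirs. For HSPD1 the element lies before the inner of its 2 starts (at -245 to -228 from chr2:197499840) and downstream of the outer one. The DNAJA1 element lies after its start, at 3 to 15. Those of HSPA8, HSP90AA1 and HSP90AB1 lie before the start of their window but inside the full span of the gene. The stretches are written 5′ to 3′ on the strand of the gene, with the elements in capitals.
HSPA8 (chr11:123062159-123062211, minus strand): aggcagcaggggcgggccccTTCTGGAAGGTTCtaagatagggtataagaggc
HSPA8, farther from the start (chr11:123062334-123062386, minus strand): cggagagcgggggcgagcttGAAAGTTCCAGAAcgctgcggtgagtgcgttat
HSP90AA1 (chr14:102087100-102087152, minus strand): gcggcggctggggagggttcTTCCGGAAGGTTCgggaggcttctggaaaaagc
HSP90AB1 (chr6:44247758-44247863, plus strand): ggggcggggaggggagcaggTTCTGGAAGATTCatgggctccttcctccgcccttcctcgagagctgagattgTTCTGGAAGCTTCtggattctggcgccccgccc
HSPD1 (chr2:197500048-197500090, minus strand): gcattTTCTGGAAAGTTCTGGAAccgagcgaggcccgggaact
DNAJA1 (chr9:33025256-33025308, plus strand): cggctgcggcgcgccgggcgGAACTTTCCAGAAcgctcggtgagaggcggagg
DNAJB6 (chr7:157336853-157336905, plus strand): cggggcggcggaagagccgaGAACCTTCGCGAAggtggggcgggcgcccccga
CHORDC1 (chr11:90223067-90223129, minus strand): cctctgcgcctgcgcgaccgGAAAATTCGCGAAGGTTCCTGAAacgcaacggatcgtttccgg
The stress-inducible pair HSPA1A and HSPA1B is shown for its near-identical promoters, with the 2-unit element in capitals.
HSPA1A (chr6:31815417-31815464, plus strand): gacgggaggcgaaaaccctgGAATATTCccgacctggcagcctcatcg
HSPA1B (chr6:31827613-31827660, plus strand): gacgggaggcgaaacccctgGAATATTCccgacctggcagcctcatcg
A match is a description of the letters and was not tested as a binding site. Of the 7 genes with a 3-unit element, HSPA8, HSP90AA1, DNAJA1, DNAJB6 and CHORDC1 rose in LPS against NC, and HSP90AB1 (0.04 ± 0.07) and HSPD1 (-0.10 ± 0.07) did not pass the test. In CE against LPS, HSPA8, HSP90AA1, HSP90AB1, HSPD1 and DNAJA1 fell, and DNAJB6 (-0.10 ± 0.05) and CHORDC1 (0.17 ± 0.07) did not pass. Genes with the same element thus did not all move alike.

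In LPS against NC, 6 of the 7 cytosolic Hsp70 and Hsp110 genes rose and HSPA14 fell, and 4 of 6 J protein genes rose. Of these Hsp70 and Hsp110 calls, the rise of HSPH1 alone held in every alternative. In CE against LPS, HSPA8, both Hsp90 genes and 7 of 8 TRiC genes fell. In LPS against NC, which asks what the pyroptosis model changes, 18 of the 44 members rose (40.9%), 6 fell (13.6%) and 20 did not pass, beside 22.4% of all genes that rose and 23.5% that fell. Their median change was 0.13, against -0.01 for all genes tested. Upper quartile factors shifted the all-gene median by -0.11 and gave a split of 12 higher and 9 lower, and without NC 3 the count of members called was 15. Of all genes, 6458 were called in the main fit and 5374 without NC 3. In CE against LPS, which asks what cyclosporin A and eltrombopag change in the model, 4 members rose (9.09%), 23 fell (52.3%) and 17 did not pass, beside 28.8% of all genes that rose and 20.7% that fell. The median was -0.28, against 0.08 for all genes.

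In CEL against LPS, 8 members rose (18.2%), 24 fell (54.5%) and 12 did not pass, beside 28.7% of all genes that rose and 27.2% that fell, with a median of -0.30 against -0.03. In CEL against CE, which asks what luspatercept adds, 7 members rose (15.9%), 1 fell (2.27%) and 36 did not pass, beside 8.78% of all genes that rose and 14.8% that fell, with a median of 0.05 against -0.09. With no filter on low counts the split turned round, to 1 higher and 3 lower. The count rested on few libraries and on the settings. It was 3 without CEL 3, 4 without CEL 2 and 18 without CE 1, and 0 with limma on log2(TPM + 1), where 4 members had an unadjusted p under 0.05, against 7 called by DESeq2. Of all genes, 3321 were called in the main fit, 2711 without CEL 3, 2120 without CEL 2 and 3052 without CE 1. With limma on log2(TPM + 1) 266 of all genes were called, and with DESeq2 2741. In CE against NC, 8 members rose (18.2%) and 21 fell (47.7%), beside 34.6% of all genes that rose and 29.4% that fell, with a median of -0.13 against 0.09. With upper quartile factors the split was 5 higher and 29 lower, with no filter on low counts 12 higher and 16 lower, and with both limma settings 8 higher and 8 lower. In CEL against NC, 11 members rose (25%) and 18 fell (40.9%), beside 34% of all genes that rose and 33% that fell, with a median of -0.07 against 0.00. With upper quartile factors the split was 8 higher and 26 lower, and with library size alone 8 higher and 22 lower, whereas limma on log2(TPM + 1) gave 10 higher and 7 lower and on log2(TPM + 0.1) 11 higher and 7 lower. LPS against NC, CE against LPS and CEL against LPS share the LPS libraries, so their values are given side by side and not related to each other.

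**Figure D2:**
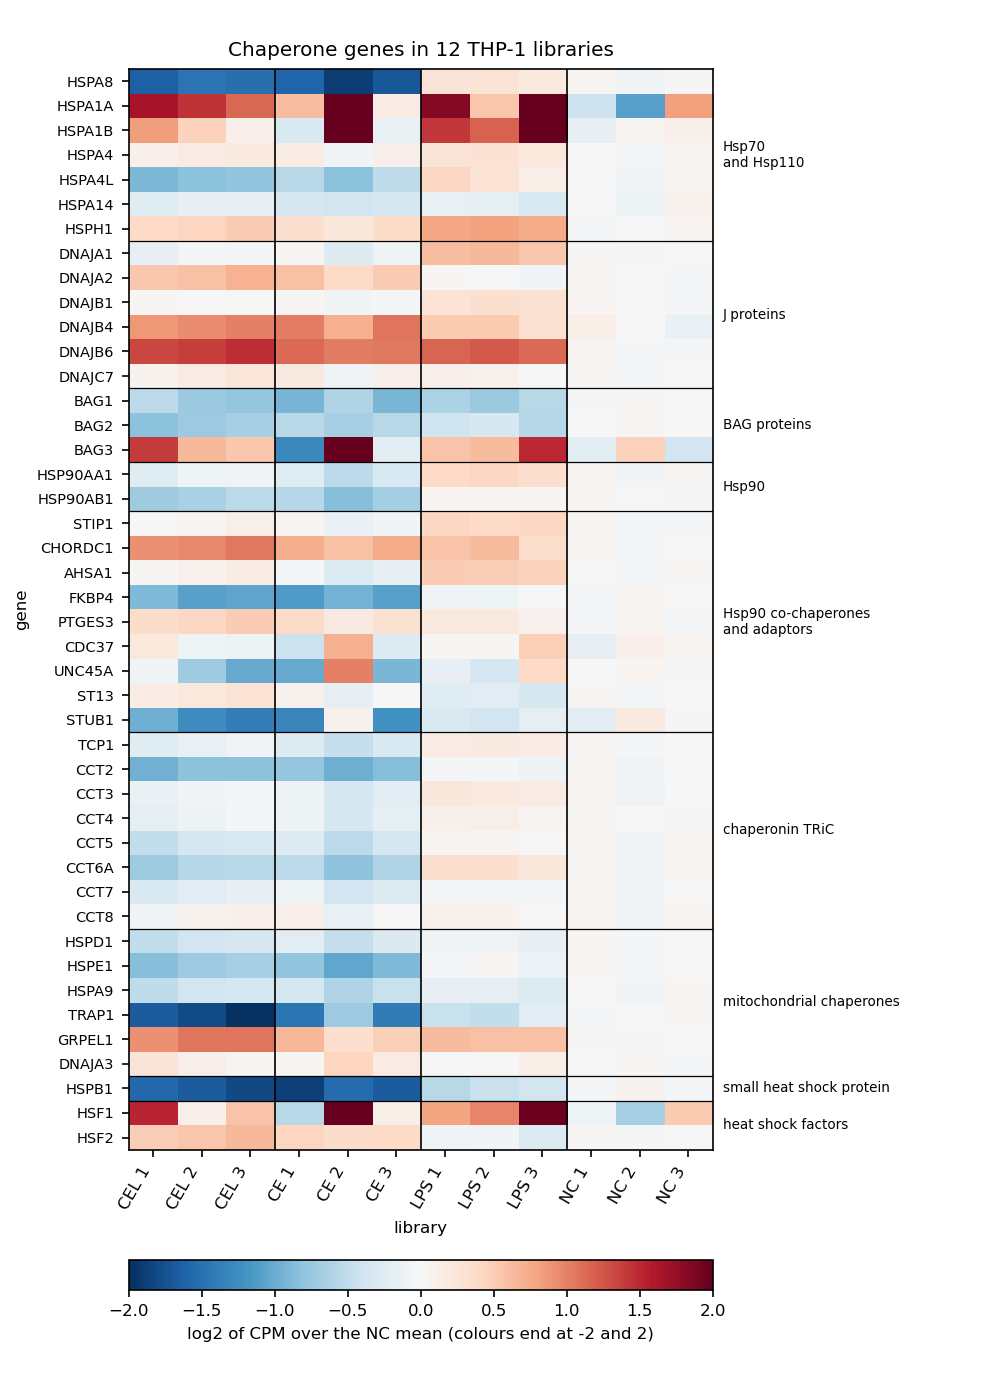
Each of the 44 genes (rows, grouped by role) in each of the 12 libraries (columns, CEL, CE, LPS and NC), coloured by the log2 of its CPM over the mean of the NC libraries, with colours ending at -2 and 2. HSPA8, HSPB1 and TRAP1 were low in all CEL and CE libraries, DNAJB6 was high in all libraries that received LPS and ATP, and CE 2 departed from CE 1 and CE 3 at HSPA1A, HSPA1B, BAG3, UNC45A and HSF1.

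HSPA8, the constitutive Hsp70 of the cytosol, showed the largest fall among the 44 members in both drug groups against LPS. It had 1101, 1224 and 1202 CPM in CEL, 1131, 927.7 and 1053 in CE, 4108, 4136 and 3929 in LPS and 3533, 3262 and 3464 in NC. The drug groups lay far below both other groups with no overlap. HSPA8 was 3.91-fold lower in CE than in LPS (-1.97 ± 0.08, adjusted p = 9.24e-09) and 3.45-fold lower in CEL than in LPS (-1.79 ± 0.08, adjusted p = 9.87e-09), and it was also lower than in NC, by -1.72 ± 0.08 in CE and -1.54 ± 0.08 in CEL. All 4 calls held in every alternative. CEL and CE overlapped (0.18 ± 0.08, adjusted p = 0.124). In LPS against NC it rose by 0.25 ± 0.08 (adjusted p = 0.0229), a call lost in 9 of 18 alternatives, among them those without LPS 1, LPS 2, NC 2 or NC 3. By TPM, HSPA8 was the most abundant member in LPS (2557 ± 447, SD) and NC (1949), whereas HSP90AB1 led in CEL (1352) and CE (1233).

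The stress-inducible HSPA1A and HSPA1B, encoded side by side on chromosome 6, were expressed at low levels. Of the stretches of 100 bases in HSPA1A transcripts, 67.3% also occur in HSPA1B transcripts, so the authors' counting could split reads between them and single values are uncertain. HSPA1A had 1.21, 1.05 and 0.860 CPM in CEL, 0.591, 2.07 and 0.434 in CE, 1.38, 0.568 and 3.06 in LPS and 0.291, 0.183 and 0.685 in NC. These rest on 4 to 69 counts per library, and every pair of groups overlapped apart from CEL and NC. In LPS against NC HSPA1A rose by 2.15 ± 0.74 (adjusted p = 0.0345), with overlapping libraries. The call was lost with the replicate number as a block (2.11, adjusted p = 0.0611) and without LPS 1, LPS 3, NC 1 or NC 2. HSPA1B had 9.82, 7.52 and 5.86 CPM in CEL, 4.43, 22.1 and 4.96 in CE, 14.6, 12.3 and 22.5 in LPS and 4.90, 5.66 and 5.88 in NC. LPS lay above NC in every library (1.59 ± 0.53, 3.01-fold, adjusted p = 0.0297), a call lost without LPS 3, NC 1, NC 2 or NC 3. CE 2 stood far above the other CE libraries in both genes. HSPA1B did not pass in CE against LPS (-0.65 ± 0.51), whereas without CE 2 it fell by 1.80 (adjusted p = 0.000189). HSPA1A without CE 2 changed by -1.69 (adjusted p = 0.0492), beside -0.70 ± 0.67 with it, and no other alternative called HSPA1A there.

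Hsp110 proteins are nucleotide exchange factors of Hsp70. HSPH1, the main stress-responsive one, had 616.9, 626.9 and 665.9 CPM in CEL, 582.4, 548.1 and 598.7 in CE, 796, 812.1 and 779.8 in LPS and 457.5, 462.2 and 479.1 in NC. All 4 groups were separate, in the order LPS, CEL, CE and NC. HSPH1 rose 1.71-fold in LPS against NC (0.77 ± 0.05, adjusted p = 1.20e-07), fell in CE against LPS (-0.47 ± 0.05, adjusted p = 8.08e-06) and in CEL against LPS (-0.32 ± 0.05, adjusted p = 0.00011), and stayed above NC in CE (0.31 ± 0.05) and CEL (0.45 ± 0.05). In CEL against CE it rose by 0.14 ± 0.05 (adjusted p = 0.0469, and 0.0768 with the replicate block), a call also lost without any of the 3 CEL libraries or CE 2. HSPA4L, an Hsp110 member known from testis, had 35.9, 37.6 and 38.7 CPM in CEL, 45.4, 37.9 and 47.1 in CE, 88.5, 81.0 and 73.4 in LPS and 66.6, 64.3 and 69.2 in NC. It rose by 0.28 ± 0.09 in LPS against NC (adjusted p = 0.0234). That call was lost in 9 of 18 alternatives, among them those without LPS 1, LPS 2 or any NC library. HSPA4L fell to levels under NC in both drug groups, by -0.90 ± 0.09 in CE and -1.11 ± 0.09 in CEL against LPS. HSPA4, another Hsp110, kept within 387 to 489 CPM in all libraries, with 0.25 ± 0.05 in LPS against NC and -0.18 ± 0.05 in CE against LPS. Each of these HSPA4 calls was lost in 4 of 18 alternatives. HSPA14, an Hsp70 of the ribosome-associated complex, fell by 0.21 ± 0.06 in LPS against NC and by 0.34 ± 0.06 in CE against NC. The HSPA14 call in LPS against NC was lost in 6 of 18 alternatives, among them those without LPS 3 or NC 3.

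The ratio of HSPH1 to HSPA8 within a library, from TPM, was 0.459 ± 0.027 in CEL, 0.459 ± 0.022 in CE, 0.162 ± 0.002 in LPS and 0.115 ± 0.010 in NC (SD, n = 3). The lowest CE library (0.434) lay above the highest LPS library (0.163). With 3 against 3 libraries the smallest p an exact permutation test can give is 0.1, which this contrast reached (two-sided, 0.15 after Benjamini-Hochberg over 15 ratio tests).

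**Figure D3:**
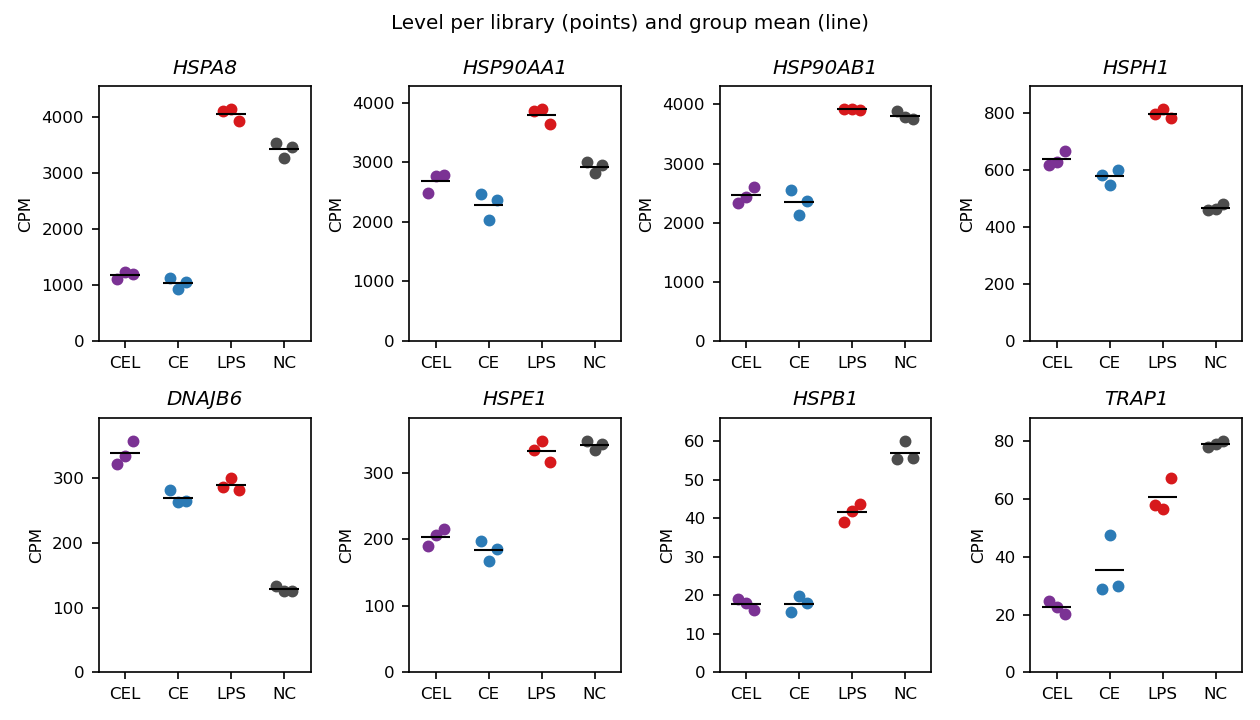
CPM per library (points) and group mean (line) of 8 chaperone genes in CEL, CE, LPS and NC, each on its own linear axis from 0. HSPA8, HSPE1, HSPB1 and TRAP1 were lower in CEL and CE than in LPS and NC, HSPH1 was highest in LPS, and DNAJB6 was lowest in NC.

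Among the J proteins, DNAJB6, which keeps aggregation-prone chains soluble, was high wherever LPS and ATP were given. It had 321.7, 334.2 and 357.4 CPM in CEL, 281.9, 262.6 and 264.7 in CE, 286.7, 299.4 and 281.2 in LPS and 132.7, 126.2 and 125.1 in NC. NC lay apart from the other 3 groups, and CE and LPS overlapped. DNAJB6 rose 2.26-fold in LPS (1.18 ± 0.05, adjusted p = 3.64e-09), 2.11-fold in CE (1.08 ± 0.05) and 2.64-fold in CEL (1.40 ± 0.05) against NC, and these calls held in every alternative. In CEL against CE it rose by 0.32 ± 0.05 (adjusted p = 0.000615), a call that no left-out library ended, though 4 other alternatives did. DNAJB1, a classical heat-inducible partner of Hsp70, had 110.8, 110.1 and 109.5 CPM in CEL, 111.6, 104.8 and 106.1 in CE, 132.9, 136.9 and 135.8 in LPS and 113, 109 and 106.2 in NC. LPS alone stood above the other groups, which overlapped. The change was 0.31 ± 0.04 in LPS against NC (adjusted p = 6.77e-05), -0.33 ± 0.04 in CE against LPS and -0.30 ± 0.04 in CEL against LPS. Each of these DNAJB1 calls was lost with both limma settings, which compare TPM between groups. Both falls were also lost with an offset for GC content.

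DNAJA1 and DNAJA2 belong to the same class of cytosolic J proteins and differed. DNAJA1 rose by 0.61 ± 0.07 in LPS against NC and fell by 0.70 ± 0.07 in CE and 0.67 ± 0.07 in CEL against LPS. DNAJA2 did not pass in LPS against NC (0.00 ± 0.06) and rose by 0.50 ± 0.06 in CE and 0.61 ± 0.06 in CEL against LPS. DNAJB4 rose in all 3 groups against NC (0.45 ± 0.11 in LPS, 0.94 ± 0.11 in both CE and CEL). The call in LPS was lost in 4 of 18 alternatives, among them those without LPS 2 or NC 3. Those in CE and CEL held in every alternative. DNAJC7, which binds both Hsp70 and Hsp90, ranged from 231 to 285 CPM and was called only in CEL against NC (0.16 ± 0.06, adjusted p = 0.0397, and 0.0583 with the replicate block). That call was lost in 15 of 18 alternatives, with each left-out library among them. Of the 6 J proteins, 4 rose and 0 fell in LPS against NC, and 2 rose and 2 fell in CE against LPS, beside 22.4% and 23.5% of all genes higher and lower in LPS against NC and 28.8% and 20.7% in CE against LPS.

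Of the BAG proteins, exchange factors that link Hsp70 to other pathways, BAG1 had 78.0, 66.7 and 65.0 CPM in CEL, 58.4, 73.4 and 59.5 in CE, 71.8, 67.0 and 76.0 in LPS and 110.1, 112.8 and 111.8 in NC. NC lay above the other 3 groups, which overlapped. BAG1 fell by 0.64 ± 0.10 in LPS against NC (adjusted p = 0.000208), the largest fall among the members in that comparison. BAG2, an inhibitor of the ubiquitin ligase STUB1, fell by 0.43 ± 0.07 in LPS, 0.59 ± 0.07 in CE and 0.73 ± 0.07 in CEL against NC. BAG3, which directs misfolded proteins to autophagy, ranged from 0.640 to 7.51 CPM, both ends in CE, and passed in no comparison. Without CE 2 it fell by 1.60 in CE against LPS (adjusted p = 0.0104) and rose by 1.56 in CEL against CE (adjusted p = 0.0247). With CE 2 these values were 0.05 and -0.10, and no other alternative called BAG3 in either comparison.

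The Hsp90 genes fell together under the drugs. HSP90AA1, the inducible form, had 2482, 2773 and 2795 CPM in CEL, 2467, 2040 and 2369 in CE, 3867, 3896 and 3641 in LPS and 3008, 2820 and 2964 in NC. LPS was highest and CE lowest, with no overlap between any groups. The changes were 0.38 ± 0.08 in LPS against NC (adjusted p = 0.00279), -0.73 ± 0.08 in CE against LPS (adjusted p = 1.82e-05), -0.50 ± 0.08 in CEL against LPS, and 0.23 ± 0.08 in CEL against CE, which did not pass (adjusted p = 0.0664). HSP90AB1, the constitutive form, had 2339, 2440 and 2610 CPM in CEL, 2555, 2122 and 2375 in CE, 3916, 3920 and 3913 in LPS and 3897, 3780 and 3756 in NC. LPS lay just above NC in every library, and CEL and CE overlapped well below them. HSP90AB1 fell by 0.74 ± 0.07 in CE against LPS (adjusted p = 8.42e-06) and by 0.67 ± 0.07 in CEL against LPS, and did not pass in LPS against NC (0.04 ± 0.07). The ratio of HSP90AA1 to HSP90AB1 from TPM was 0.913 ± 0.035 in CEL, 0.814 ± 0.016 in CE, 0.812 ± 0.030 in LPS and 0.646 ± 0.019 in NC (SD, n = 3). LPS lay above NC in every library (exact permutation p = 0.1, the smallest possible, 0.15 adjusted over the 15 tests), and CE overlapped LPS (exact permutation p = 0.8).

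The Hsp90 co-chaperones split. FKBP4, an immunophilin of steroid receptor complexes, had 35.6, 31.1 and 31.5 CPM in CEL, 30.0, 34.3 and 30.9 in CE, 62.4, 62.3 and 65.2 in LPS and 64.3, 67.7 and 65.4 in NC. The drug groups lay far under LPS and NC, by -0.95 ± 0.07 in CEL and -1 ± 0.07 in CE against LPS (adjusted p = 4.39e-07 and 4.45e-07), and these calls held in every alternative. AHSA1, which speeds the ATPase of Hsp90, had 170.2, 177.5 and 186.7 CPM in CEL, 163.1, 138.8 and 149.8 in CE, 238.7, 237.2 and 230 in LPS and 168.5, 165 and 169.9 in NC. It peaked in LPS, with 0.49 ± 0.06 against NC, -0.64 ± 0.06 in CE and -0.40 ± 0.06 in CEL against LPS, and was higher in CEL than in CE (0.24 ± 0.06, adjusted p = 0.00852). The AHSA1 call in CEL against CE was lost in 5 of 18 alternatives, among them the GC offset. STIP1, which passes clients from Hsp70 to Hsp90, had a like pattern, with 0.41 ± 0.05 in LPS against NC and -0.45 ± 0.05 in CE against LPS. With the GC offset both STIP1 calls were lost (0.37, adjusted p = 0.124, and -0.31, adjusted p = 0.194).

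CHORDC1, a heat-inducible Hsp90 partner, had 244.3, 251.8 and 270.3 CPM in CEL, 214.4, 194.2 and 216.5 in CE, 191.4, 199.9 and 165.5 in LPS and 132.4, 126.1 and 129.8 in NC. CEL was highest and NC lowest, and CE overlapped LPS. CHORDC1 rose by 0.52 ± 0.07 in LPS against NC (adjusted p = 0.000102), by 0.46 ± 0.07 in CEL against LPS and by 0.29 ± 0.07 in CEL against CE (adjusted p = 0.0105, lost without CEL 3). PTGES3, the co-chaperone p23, rose in CE (0.29 ± 0.06) and CEL (0.43 ± 0.06) against NC. ST13, which stabilises the ADP-bound state of Hsp70, fell by 0.25 ± 0.06 in LPS against NC and rose by 0.23 ± 0.06 in CE and 0.46 ± 0.06 in CEL against LPS. The ST13 call in CE against LPS was lost in 11 of 18 alternatives, among them those without CE 1, CE 3 or LPS 2, and its value there ran down to 0.06.

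Among the adaptors for which CE 2 stood apart, the kinase adaptor CDC37 passed in no comparison, with 41.1 to 90.7 CPM over all libraries. Without CE 2, CDC37 fell by 0.53 in CE against LPS (adjusted p = 0.013), where with it the value was -0.10 ± 0.26. STUB1, the ubiquitin ligase CHIP, fell in CEL against LPS (-0.92 ± 0.32, adjusted p = 0.0283, lost without CEL 2, CEL 3, LPS 1 or LPS 3) and against NC (-1.20 ± 0.32, adjusted p = 0.00569). In CE against LPS STUB1 did not pass (-0.38 ± 0.31), and without CE 2 it fell by 0.98 (adjusted p = 0.00031). UNC45A, a myosin chaperone, had 8.42, 33.9 and 8.91 CPM in CE and passed in no comparison. Without CE 2 UNC45A fell by 0.95 in CE against LPS (adjusted p = 0.0112) and by 0.93 in CE against NC (adjusted p = 0.0103). With CE 2 these values were 0.01 and 0.02. No other alternative, the GC offset among them, called CDC37, STUB1 or UNC45A in CE against LPS.

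**Figure D4:**
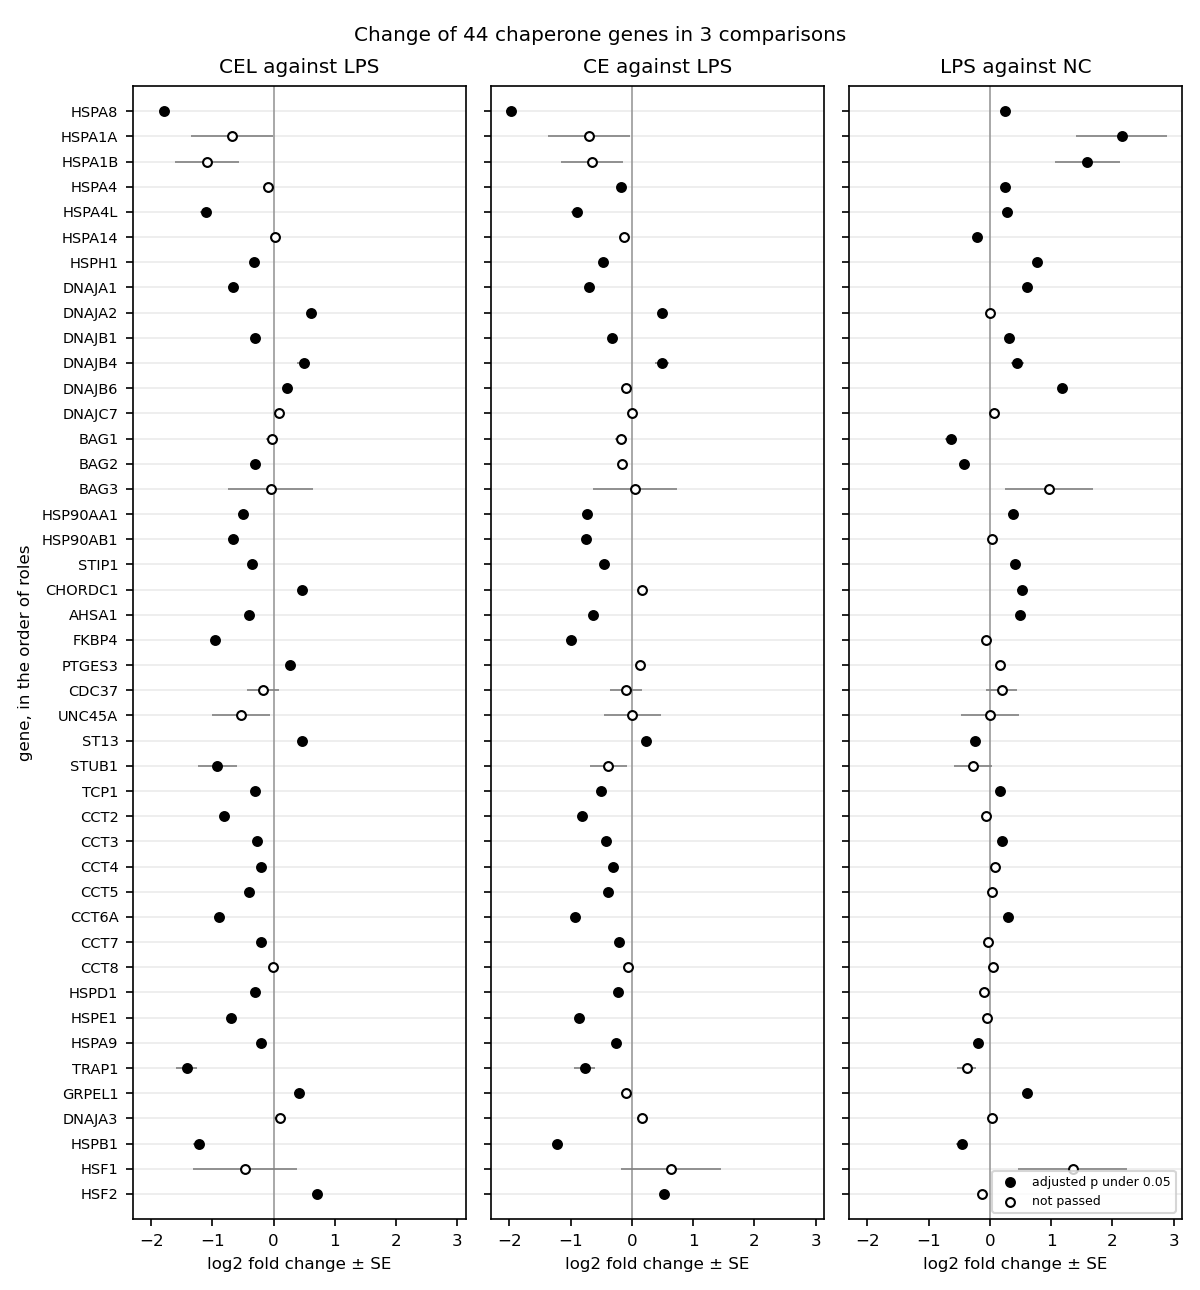
Log2 fold change ± SE (x) of each of the 44 genes (rows, grouped by role) in CEL against LPS, CE against LPS and LPS against NC, with filled points where the adjusted p is under 0.05. Of the 44, 24, 23 and 6 fell in the 3 panels and 8, 4 and 18 rose, and HSPA8 lay at -1.79, -1.97 and 0.25.

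TRiC is a double ring of 8 different subunits, each present once in every ring, so equal amounts of the 8 proteins are needed. In LPS against NC 3 of the 8 genes rose (TCP1, CCT3 and CCT6A) and 0 fell, beside 22.4% of all genes that rose and 23.5% that fell. The CCT3 rise was lost in 11 of 18 alternatives and the CCT6A rise in 5 of 18. In CE against LPS 7 fell and 0 rose, and the same numbers were found in CEL against LPS, with CCT8 as the exception (-0.06 ± 0.07 and -0.01 ± 0.07). Of all genes, 28.8% rose and 20.7% fell in CE against LPS, and 28.7% and 27.2% in CEL against LPS. The CCT7 call was lost in 10 of 18 alternatives in each comparison, among them those without LPS 1, LPS 2 or LPS 3. The CCT3 and CCT4 calls in CEL against LPS were each lost in 6 of 18. The falls differed in size. CCT6A had 349.2, 385.3 and 390.3 CPM in CEL, 397.4, 330.4 and 377.1 in CE, 713.9, 717.2 and 670.9 in LPS and 585.3, 544.4 and 592.4 in NC. The drug groups lay below NC and LPS with no overlap, at -0.90 ± 0.07 in CEL and -0.93 ± 0.07 in CE against LPS (adjusted p = 8.04e-07 and 9.46e-07). CCT2 fell by 0.81 ± 0.06 in both CE and CEL, and TCP1, CCT3, CCT4, CCT5 and CCT7 fell by 0.21 to 0.50 in CE and by 0.20 to 0.41 in CEL. TCP1 was the subunit gene called in CEL against CE (0.19 ± 0.06, adjusted p = 0.0381, and 0.0682 with the replicate block), and its rise in LPS against NC (0.16 ± 0.06, adjusted p = 0.0407) was also lost with the block (adjusted p = 0.0651). So was its fall in CEL against NC (-0.15 ± 0.06, adjusted p = 0.0356, and 0.0563 with the block). The TCP1 calls were lost in 12 of 18 alternatives in LPS against NC, in 12 of 18 in CEL against CE, where leaving out any CEL library ended the call, and in 11 of 18 in CEL against NC, where limma on log2(TPM + 1) gave 0.20.

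The shares of the subunit genes in the summed TPM of all 8 were uneven. These are shares of RNA, and the amounts of the subunit proteins were not measured. CCT5 took the largest share, 28.7% ± 0.54 in CEL, 30.3% ± 0.29 in CE, 29.7% ± 0.09 in LPS and 30.9% ± 0.50 in NC (SD, n = 3). CCT2 took 5.33% ± 0.19 in CEL, 5.70% ± 0.07 in CE, 7.66% ± 0.16 in LPS and 8.68% ± 0.07 in NC, and CCT6A 8.41% ± 0.23, 8.91% ± 0.38, 12.0% ± 0.22 and 10.6% ± 0.06 in the same groups. CCT8 took 16.9% ± 0.15 in CEL, 17.0% ± 0.13 in CE, 13.3% ± 0.13 in LPS and 13.6% ± 0.18 in NC. The ratio of the largest to the smallest subunit TPM was 5.17 to 5.71 in CEL, 5.24 to 5.44 in CE, 4.50 to 4.56 in LPS and 4.48 to 4.89 in NC, so the drug groups lay above both others in every library. The ratio of CCT6A to CCT8 was 0.497 ± 0.014 in CEL, 0.526 ± 0.024 in CE, 0.906 ± 0.022 in LPS and 0.778 ± 0.008 in NC. CE lay below LPS in every library (exact permutation p = 0.1, the smallest possible, 0.15 adjusted over the 15 tests). CEL overlapped CE (exact permutation p = 0.2, 0.273 adjusted). Of the 8 genes, CCT6A and CCT8 had the largest and smallest change in CE against LPS (-0.93 and -0.06). Their ratio in these same libraries is therefore no separate support for a difference.

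**Figure D5:**
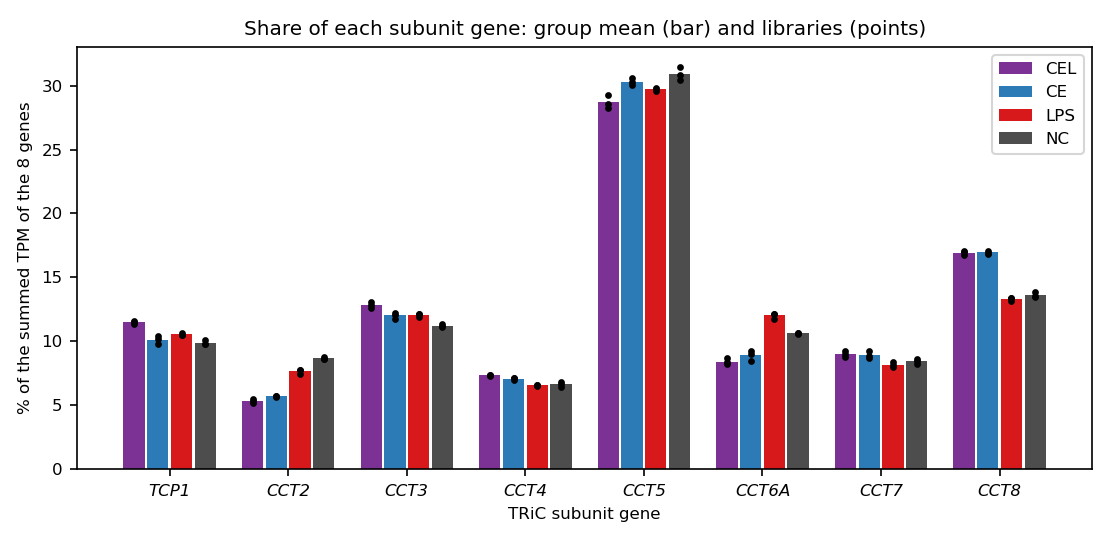
Share of each TRiC subunit gene in the summed TPM of the 8 genes (y, %), as group mean (bars: CEL, CE, LPS and NC) with the 3 libraries as points. CCT5 took 28.7% to 30.9%, CCT2 and CCT6A took smaller shares in CEL and CE than in LPS and NC, and CCT8 larger ones.

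In mitochondria, HSPD1 (Hsp60) forms the folding chamber and HSPE1 (Hsp10) its lid. Both genes lie head to head on chromosome 2, with start sites 105 bases apart in RefSeq, or 539 for a second HSPD1 start, and are known to share a promoter. HSPD1 had 1391, 1498 and 1534 CPM in CEL, 1677, 1402 and 1588 in CE, 1842, 1854 and 1737 in LPS and 1982, 1890 and 1966 in NC. HSPE1 had 189.7, 206.7 and 215.1 CPM in CEL, 197.9, 166.5 and 184.7 in CE, 334.5, 346.6 and 315.5 in LPS and 347.8, 334.4 and 342.6 in NC. Both were lower in the drug groups without overlap, and HSPE1 fell further. The change in CE against LPS was -0.86 ± 0.07 for HSPE1 (adjusted p = 9.44e-07, held in every alternative) and -0.22 ± 0.07 for HSPD1 (adjusted p = 0.0231, lost without CE 3, LPS 1 or LPS 2). In CEL against LPS it was -0.70 ± 0.07 for HSPE1 and -0.30 ± 0.07 for HSPD1, and the HSPD1 call was lost without CEL 1, CEL 2 or LPS 2. The ratio of HSPE1 to HSPD1 from TPM was 0.646 ± 0.008 in CEL, 0.551 ± 0.004 in CE, 0.864 ± 0.012 in LPS and 0.830 ± 0.006 in NC (SD, n = 3). The 4 groups did not overlap in this ratio. CEL against CE, CE against LPS and LPS against NC each gave an exact permutation p of 0.1, the smallest possible (0.15 adjusted).

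TRAP1, the Hsp90 of mitochondria, had 24.8, 22.8 and 20.2 CPM in CEL, 28.8, 47.7 and 30.1 in CE, 58.1, 56.5 and 67.3 in LPS and 78.0, 79.1 and 80.3 in NC. The groups were separate and ordered CEL, CE, LPS and NC from low to high. TRAP1 fell by 0.77 ± 0.17 in CE against LPS (adjusted p = 0.00236), by 1.42 ± 0.17 in CEL against LPS (adjusted p = 2.25e-05) and by 0.65 ± 0.17 in CEL against CE (adjusted p = 0.0155), where it was the member that fell. Without CE 2 the last change was -0.39 (adjusted p = 0.0142). That call was lost without CEL 2 or CEL 3, and LPS against NC did not pass (-0.38 ± 0.16, adjusted p = 0.0787). GRPEL1, the exchange factor of mitochondrial Hsp70, had 100.2, 111.8 and 111.5 CPM in CEL, 84.6, 67.1 and 73.9 in CE, 82.5, 80.2 and 79.5 in LPS and 54.3, 52.4 and 52.8 in NC. CEL was highest, NC lowest, and CE overlapped LPS. GRPEL1 rose by 0.60 ± 0.08 in LPS against NC (adjusted p = 6.8e-05) and by 0.52 ± 0.08 in CEL against CE (adjusted p = 0.000639), a call lost with limma on log2(TPM + 1) (adjusted p = 0.194) and with no left-out library. HSPA9, the mitochondrial Hsp70 itself, fell by 0.20 ± 0.07 in LPS against NC (lost in 10 of 18 alternatives, among them those without LPS 1, LPS 2, LPS 3, NC 1 or NC 3) and by 0.46 ± 0.07 in CE and 0.41 ± 0.07 in CEL against NC. The mitochondrial J protein DNAJA3 passed in no comparison.

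HSPB1, the small heat shock protein that holds unfolded chains without ATP, had 19.2, 18.1 and 16.3 CPM in CEL, 15.7, 19.7 and 18.1 in CE, 39.0, 42.0 and 43.8 in LPS and 55.4, 60.2 and 55.8 in NC. NC was highest, LPS lay between, and CEL and CE overlapped far below. HSPB1 fell by 0.46 ± 0.09 in LPS against NC (adjusted p = 0.00148) and 2.33-fold in both CE and CEL against LPS (-1.22 ± 0.09 each, adjusted p = 8.04e-07 and 5.60e-07). The falls in both drug groups held in every alternative, whereas the fall in LPS against NC was lost with the GC offset and both limma settings.

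Of the transcription factors, HSF2 had 52.1, 54.2 and 58.0 CPM in CEL, 49.8, 47.6 and 48.5 in CE, 34.9, 35.7 and 30.5 in LPS and 37.6, 36.4 and 36.8 in NC. The drug groups lay above LPS and NC without overlap, by 0.53 ± 0.07 in CE and 0.70 ± 0.07 in CEL against LPS (adjusted p = 5.20e-05 and 4.08e-06), and both calls held in every alternative. HSF1 had 2.29, 0.852 and 1.18 CPM in CEL, 0.541, 8.04 and 0.867 in CE, 1.38, 1.56 and 3.11 in LPS and 0.748, 0.502 and 1.14 in NC. It rests on 11 to 167 counts, the highest in CE 2, and passed in no comparison. Without CE 2, HSF1 fell by 1.50 in CE against LPS (adjusted p = 0.0332), where with it the value was 0.64 ± 0.82. No other alternative, the GC offset among them, called HSF1 in that comparison.

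Other genes of the same pathways were counted from lists fixed by role, with at most the 2 of smallest p named. Their counts stand beside 22.4% of all genes higher and 23.5% lower in LPS against NC, and 28.8% higher and 20.7% lower in CE against LPS, and several are near those shares. Of 23 other J proteins and BAG proteins of the cytosol and nucleus, 6 rose and 3 fell in LPS against NC, and 6 rose and 9 fell in CE against LPS. DNAJA4, a J protein reported as an HSF1 target, averaged 101 CPM in LPS and 55.4 in NC (0.87 ± 0.05), and fell by 0.63 ± 0.05 in CE against LPS. Of 12 tested genes reported as HSF1 targets that are not members, 6 rose and 1 fell in LPS against NC with a median of 0.78, against -0.01 for all genes, and 3 rose and 2 fell in CE against LPS with a median of -0.04. JMJD6 averaged 48.3 CPM in LPS and 24.1 in NC (1.00 ± 0.07), and ZFAND2A, an arsenite-inducible proteasome adaptor, 31.4 CPM in CEL and 12.9 in LPS (1.28 ± 0.09).

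Of 20 tested other Hsp90 co-chaperones, 9 rose and 6 fell in CE against LPS. TSC1, a co-chaperone that slows the Hsp90 ATPase, averaged 93.3 CPM in CE and 41.2 in LPS (1.18 ± 0.06), and RUVBL1, an ATPase of the R2TP complex, 51.8 CPM in CE and 110 in LPS (-1.09 ± 0.07). Of the 12 tested prefoldin and chaperonin cofactor genes, which hand clients to TRiC, 4 rose and 3 fell in CE against LPS, with URI1 at 42.7 CPM in CE and 72.7 in LPS (-0.77 ± 0.07). Of 15 genes for actin and tubulin, the main TRiC clients, and for tubulin cofactors, 4 rose and 3 fell in CE against LPS. TUBB4B averaged 175 CPM in CE and 334 in LPS (-0.94 ± 0.07). Of 18 other partners of mitochondrial Hsp70 and proteases, 2 rose and 4 fell in CE against LPS. GRPEL2, the paralogue of GRPEL1, averaged 89.1 CPM in CE and 48.1 in LPS (0.89 ± 0.06). PMPCA, a subunit of the mitochondrial processing peptidase, averaged 26.8 CPM in CE and 56.5 in LPS (-1.08 ± 0.13). Of the other Hsp70 and small heat shock proteins, 15 of 16 were in the table and 5 passed the filter on low counts. HSPA13, an Hsp70 of the microsomal fraction, averaged 259 CPM in CE and 111 in LPS (1.22 ± 0.10), and HSPA2, known from testis, 0.372 CPM in CE and 2.94 in LPS (-2.97 ± 0.27).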

How the data were processed

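Per the labels' protocols, libraries were made from poly(A) RNA selected with oligo-dT. The genome build was hg38, per the submitters' processing notes. For the aligner, counter, annotation and strand, the setting is not given in the sources used here, so reads of overlapping genes cannot be told apart. The authors deposited estimated counts (29.3% of nonzero values are not whole within 0.005) and TPM for 78932 Ensembl genes, 42745 with a symbol. Counts were rounded, filtered with filterByExpr, scaled with TMM and fitted over all 12 libraries by group (edgeR 4.0.16, R 4.3.3, quasi-likelihood F-test, two-sided, Benjamini-Hochberg). The method was tested on simulated data. Standard errors are approximate, from each log2 change and its F. Alternatives were other scaling factors, no filter, DESeq2 1.42.0, limma 3.58.1 on log2(TPM + 1) and log2(TPM + 0.1), only the libraries compared, a replicate block, pseudogene counts added, HSPA1A and HSPA1B summed, each library left out and, added after seeing the data, a GC offset. GC content came from GENCODE v29 transcripts. No per-sample column was left unmatched.

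The titles number the samples 1 to 3 within each group, and the batch numbers repeat these. A pairing of samples of 1 number would rest on these numbers alone, so the replicate block was kept as an alternative. Of 18 same-numbered pairs, 6 had deviations that correlated with r above 0.1 (median -0.19, range -0.86 to 0.73, 7460 genes).

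Members and lists were chosen with earlier results of these data known. Values in every library are given for 12 core members and for the 5 called members with the largest change in each of LPS against NC, CE against LPS, CEL against LPS and CEL against CE. At most 2 genes of each other pathway list are named per comparison, those of smallest p. Protein sequences were not analysed here.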

Additional observations from a re-analysis of the deposited data

How the results depend on the processing

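The count of members called moved by over 1.5 times with limma in every comparison, by left-out libraries in LPS against NC and CEL against CE, and in CEL against CE also by RLE factors, library size alone, no filter and the use of only 6 libraries. For LPS against NC it was 24, with 9 and 10 for limma on log2(TPM + 1) and log2(TPM + 0.1), and 15 to 21 when 1 library was left out. For CE against LPS it was 27, with 13 and 13 for limma and 22 to 36 leaving out 1 library. For CEL against LPS it was 32, with 14 and 14 for limma and 26 to 31. For CE against NC it was 29, with 16 and 16 for limma and 28 to 34, and for CEL against NC 29, with 17 and 18 for limma and 23 to 27. For CEL against CE it was 8, with 5 by RLE factors, 15 by library size alone, 4 with no filter (1 higher and 3 lower), 0 and 0 for limma (4 and 4 members at an unadjusted p under 0.05), 3 with only the 6 libraries compared, and 3 to 18 leaving out 1 library. The number of all genes called also fell with limma on log2(TPM + 1). In LPS against NC it went from 6458 to 2963, and in CE against LPS from 6972 to 3586. In CEL against LPS it went from 7867 to 4984, and in CE against NC from 9008 to 6235. In CEL against NC it went from 9425 to 7173, and in CEL against CE from 3321 to 266. For CEL against CE it was 2613 by RLE factors, 3337 by library size alone and 3052 without CE 1. Upper quartile factors moved the median of all genes by -0.11 in LPS against NC, -0.18 in CE against LPS, -0.14 in CEL against LPS, -0.29 in CE against NC and -0.25 in CEL against NC.

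The calls kept in every alternative were 7 of 24 in LPS against NC, 13 of 27 in CE against LPS, 14 of 32 in CEL against LPS, 0 of 8 in CEL against CE, 13 of 29 in CE against NC and 15 of 29 in CEL against NC. The replicate block ended 6 calls, all given above, and no other. Over 6 left-out libraries, BAG3 lay at -1.60 to 0.47 in CE against LPS and -0.47 to 1.56 in CEL against CE, HSF1 at -1.50 to 1.11 and UNC45A at -0.95 to 0.28 in CE against LPS, and UNC45A at -0.93 to 0.26 in CE against NC. With library size alone, DNAJC7 in CE against LPS was -0.14. With upper quartile factors, the value in CE against NC was -0.21 for HSPA4 and -0.21 for DNAJC7, and in CEL against NC -0.10 for HSPA4, -0.24 for DNAJB1, -0.088 for DNAJC7, -0.19 for STIP1, -0.16 for AHSA1, -0.038 for ST13 and -0.21 for CCT8. With limma on log2(TPM + 1) and log2(TPM + 0.1), the value in CEL against NC was 0.22 and 0.22 for HSPA14, 0.20 and 0.20 for TCP1 and 0.081 and 0.081 for CCT7. The cause of these differences was not tested.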
